A study of Mus musculus with 6 samples.

Results

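The mitosis and spindle genes are 35 genes that cells need to enter mitosis, build a spindle, attach and separate chromosomes and divide. They were chosen by name, and each was represented by the probe set with the highest mean over the 6 arrays among those annotated to that gene alone. Of the 35, 34 had such a probe set and all 34 passed the minimum for testing, out of 11425 tested genes. Ccnb1 (cyclin B1) was not analysed here. Mouse sarcoma cell lines (strain C57BL6/J) were profiled for messenger RNA on 3 arrays of cells without functional Dicer (Dicer null) and 3 arrays of cells with 1 intact copy (Dicer heterozygous), so every sample lacked at least 1 copy. Dicer is the ribonuclease that releases mature microRNAs. All cells were grown with 10% serum and taken at confluence. The design text calls the samples cell lines and the titles call them replicates. Neither says whether they were separate cultures or clones, or how Dicer was lost, so the p-values cover no more than the differences among these samples, which may be technical.

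Most of these genes are transcribed in waves. Their messenger RNA is low in resting cells and in early interphase, accumulates before mitosis and is shut off again afterwards, so its level in a culture follows the share of cells that are dividing. Cyclin-bound Cdk1 starts mitosis, the spindle checkpoint holds it until every chromosome is attached, and the anaphase-promoting complex ends it by marking cyclins and other proteins for destruction. In a bulk sample, fewer cells in mitosis and less RNA per cell cannot be told apart.

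The arrays had median log2 values between 3.32 and 3.43, and nothing in the labels names a batch. Correlations over tested probe sets were 0.972 to 0.979 among Dicer null arrays and 0.935 to 0.973 among Dicer heterozygous arrays. The labelled cell type was checked through 10 mesenchymal markers, of which 9 had a mean of at least 3, with vimentin (Vim) at 13.73 ± 0.02 in Dicer null and 13.80 ± 0.05 in Dicer heterozygous arrays (log2 value, SD, n = 3 each). No endothelial marker of 8 reached a mean of 3, while 2 of 10 leukocyte (Cd14 and Cd68), 3 of 8 epithelial (Epcam, Krt18 and Krt19) and 4 of 8 skeletal muscle markers (Tnnt3, Myh3, Acta1 and Mylpf) did. Dicer heterozygous replicate 1 stood apart in some of these. Krt18, a keratin, was at 9.02 there and between 2.0 and 2.68 in the other arrays, and Acta1, skeletal muscle actin, at 7.75 there and between 3.13 and 4.91 elsewhere (log2 values). Krt19, another keratin, lay between 6.49 and 8.50 in Dicer null and between 4.75 and 8.92 in Dicer heterozygous arrays. Dicer1 itself did not pass the test in its 2 probe sets (log2 differences 0.14 and 0.27, limma adjusted p = 0.693 and 0.573). Since the deleted stretch is not stated, these probe sets check nothing.

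All 34 mitosis and spindle genes had a higher mean in Dicer null than in Dicer heterozygous arrays, as 48.9% of all tested genes did, and none of them passed the test. The median log2 difference was 0.77, a fold of 1.70, against -0.01 over all tested genes, and the single differences ran from 0.01 for Anln to 1.27 for Aurka. By limma's moderated statistics, adjusted over every tested probe set (Benjamini-Hochberg), 0 of 34 were called (adjusted p between 0.143 and 0.988), where 3.46% of all tested genes were called and 1.45% were called higher. At an unadjusted p under 0.05, 6 of 34 (17.6%) were higher, against 10.5% of all tested genes. The 95% interval of the difference held 0 for 28 of the 34 and reached a 2-fold rise for 30, so these arrays neither place the genes above the spread nor bound the difference tightly. Without Dicer heterozygous replicate 3 the median log2 difference was 0.34 (fold 1.26), 29 of 34 were positive, against 45.5% of all tested genes, and 0 were called by limma, where 4.07% of all tested genes were called and 1.59% called higher. At an unadjusted p under 0.05 there, 3 of 34 were higher (Plk1, Kif20a and Tpx2), against 10.5% of all tested genes. Without heterozygous replicate 1, the array with high Krt18 and Acta1, the median log2 difference was 1.08 and 34 of 34 were positive. By limma 0 were called there, where 2.35% of all tested genes were called and 0.974% called higher. At an unadjusted p under 0.05 in that setting, 16 of 34 were higher, against 1263 of 11393 tested genes. That was the largest such count with 1 array left out. Without null replicate 1, 2 or 3 or heterozygous replicate 2, 5, 0, 1 and 5 of 34 had an unadjusted limma p under 0.05. Of all tested genes, 937 of 11437, 875 of 11440, 843 of 11459 and 1018 of 11429 were higher at that threshold.

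The genes moved together from array to array. Each value was set against its gene's mean over the 6 arrays, and the median of these over the 34 genes was 0.26, 0.66 and 0.15 on the log2 scale in Dicer null replicates 1, 2 and 3, and 0.16, -0.01 and -1.31 in Dicer heterozygous replicates 1, 2 and 3. Heterozygous replicate 3 gave the lowest value of the 6 arrays for 34 of 34 genes, whereas it was the lowest for 29.8% of all tested genes. At the other end, null replicate 2 gave the highest value for 28 of 34 genes (82.4%), against 19.7% of all tested genes. Between these 2 arrays lay the other 4, whose medians spanned -0.01 to 0.26. The SD of the heterozygous arrays exceeded that of the null arrays for 34 of 34 genes, as it did for 64.6% of all tested genes, and the median SD of the 34 was 0.29 in null and 0.79 in heterozygous arrays.

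**Figure D1:**
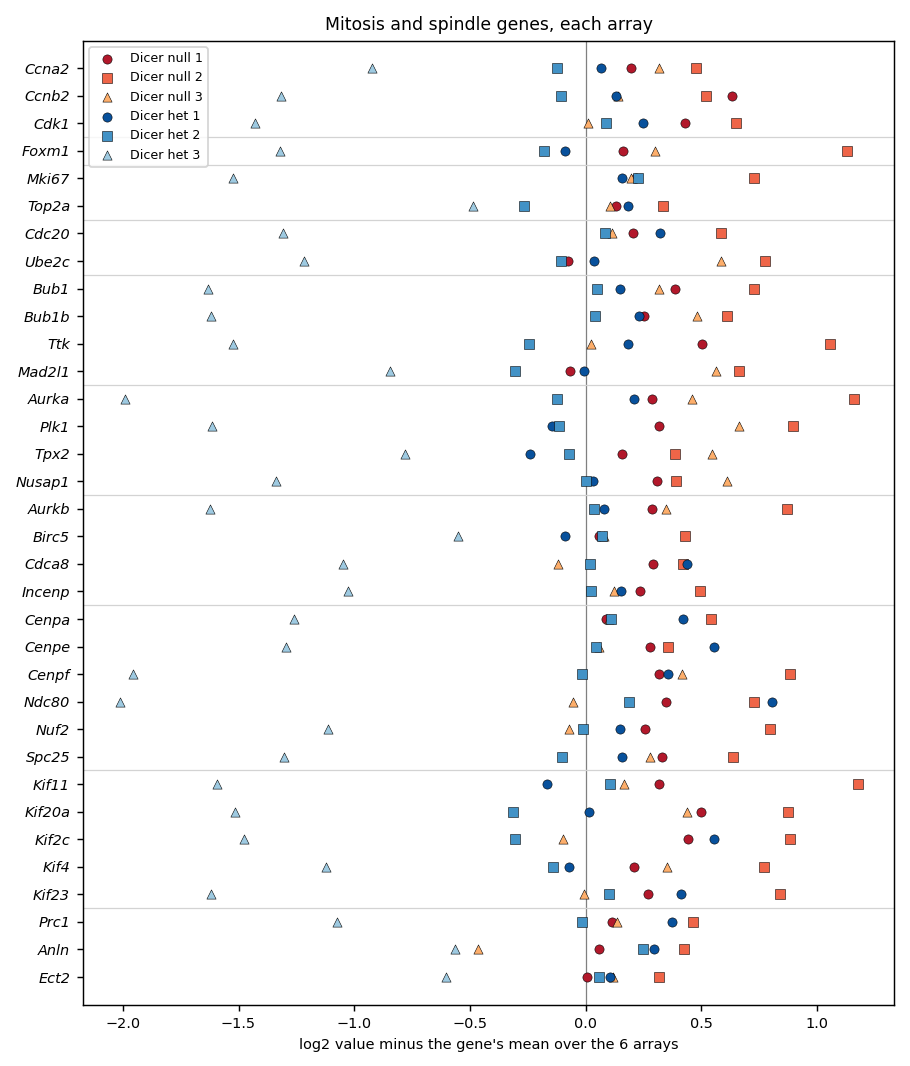
Each row is a mitosis or spindle gene and each point an array, plotted as the log2 value minus the gene's mean over the 6 arrays, with Dicer null arrays in reds and Dicer heterozygous arrays in blues. Heterozygous replicate 3 is the leftmost point in all 34 rows, and null replicate 2 is the rightmost in 28.

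The groups overlapped in most of these genes. In 14 of the 34 genes (41.2%) every Dicer null value lay above every Dicer heterozygous value, as it did in 14.9% of all tested genes. These were Ccna2, Ccnb2, Foxm1, Bub1, Bub1b, Aurka, Plk1, Tpx2, Nusap1, Aurkb, Spc25, Kif11, Kif20a and Kif4. The count refers to the brightest probe set of each gene. In a further tested probe set of Foxm1, Bub1, Bub1b, Nusap1 and Kif11 the groups overlapped. In those of Ccna2, Tpx2 and Aurkb they did not, nor in another of Foxm1 and of Kif11. Among the genes outside the 14, Top2a, Incenp and Cenpf had a further tested probe set in which the groups did not overlap. Set against heterozygous replicates 1 and 2 alone, the null arrays all lay higher in the same 14 genes, with 20.1% of all tested genes as the background. This count could not change, because heterozygous replicate 3 was the lowest array in each of the 34 genes.

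The promoters of these genes share letters that the choice of genes did not use. Cell cycle genes of late interphase are known to carry the cell cycle genes homology region (CHR) and CCAAT boxes, elements bound in other studies by the DREAM and MuvB complexes and by NF-Y. Windows of 300 bases, from 250 before to 50 after a gene's start, were taken from RefSeq annotation of GRCm38.p6. They covered 29 of the 35 genes, Ccnb1 among them. Both strands were searched for TTTGAA (CHR), CCAAT and E2F motifs (TTTGGCGC or TTTCCCGC). A CHR was found in 22 of 29 genes (75.9%), against 14.2% of the 9287 tested genes with a window, and in 20.2% of all genes in the promoter table. A CCAAT box was found in 22 of 29 (75.9%), against 43.4% of the tested genes, and 19 of 29 (65.5%) held both, against 5.63%. The motifs overlapped each other at 1 site in these windows. Birc5, Bub1, Ccnb1, Cenpe, Mad2l1, Nuf2 and Nusap1 had no TTTGAA in the window, which says only that these letters are absent there.

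The positions of the motifs differed. Within the first 50 bases after the start, 14 genes had a CHR and 2 had a CCAAT box. In the 50 bases before the start the counts were 6 and 15, and in the 50 bases before those they were 2 and 15. The promoters of 4 genes are printed because they hold a CHR before the start and belong to the members with the smallest p among such genes. Each line gives the 200 bases before the start, 5′ to 3′ on the gene's strand, in RefSeq's GRCm38.p6, with CHR and CCAAT letters of either strand in capitals.
Kif11, chr19:37376182-37376381, plus strand: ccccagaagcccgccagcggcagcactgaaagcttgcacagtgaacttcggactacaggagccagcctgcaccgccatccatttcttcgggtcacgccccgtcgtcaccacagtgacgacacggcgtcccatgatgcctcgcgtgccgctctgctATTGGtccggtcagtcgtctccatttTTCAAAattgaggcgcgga
Ccnb2, chr9:70421555-70421754, minus strand: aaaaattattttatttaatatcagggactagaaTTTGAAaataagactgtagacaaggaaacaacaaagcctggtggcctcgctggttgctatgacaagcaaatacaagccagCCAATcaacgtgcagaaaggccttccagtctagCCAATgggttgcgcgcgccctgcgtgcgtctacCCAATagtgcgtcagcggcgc
Ube2c, chr2:164769729-164769928, plus strand: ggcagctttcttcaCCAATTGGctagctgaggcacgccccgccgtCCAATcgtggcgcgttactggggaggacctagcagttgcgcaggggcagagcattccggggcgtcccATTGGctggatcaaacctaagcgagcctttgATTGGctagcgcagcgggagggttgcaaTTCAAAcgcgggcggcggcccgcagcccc
Top2a, chr11:99024190-99024389, minus strand: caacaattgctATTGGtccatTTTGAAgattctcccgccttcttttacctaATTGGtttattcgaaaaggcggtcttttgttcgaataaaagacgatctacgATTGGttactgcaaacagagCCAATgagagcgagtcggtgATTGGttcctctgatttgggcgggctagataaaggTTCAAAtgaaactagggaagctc

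In Kif11, Ube2c and Top2a the CHR nearest to the start reads TTCAAA, the reverse strand form, at 19, 29 and 23 bases before it. In Ccnb2 the printed CHR lies 167 bases before the start, and another begins at base 5 after it, outside the printed part. Kif11 has 1 CCAAT box before the start in the printed part, and the other 3 genes have several. The 22 analysed genes with a CHR had a median log2 difference of 0.79 (0.01 to 1.27), and the 6 without one had 0.71 (0.38 to 0.96), a range within that of the others.

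**Figure D2:**
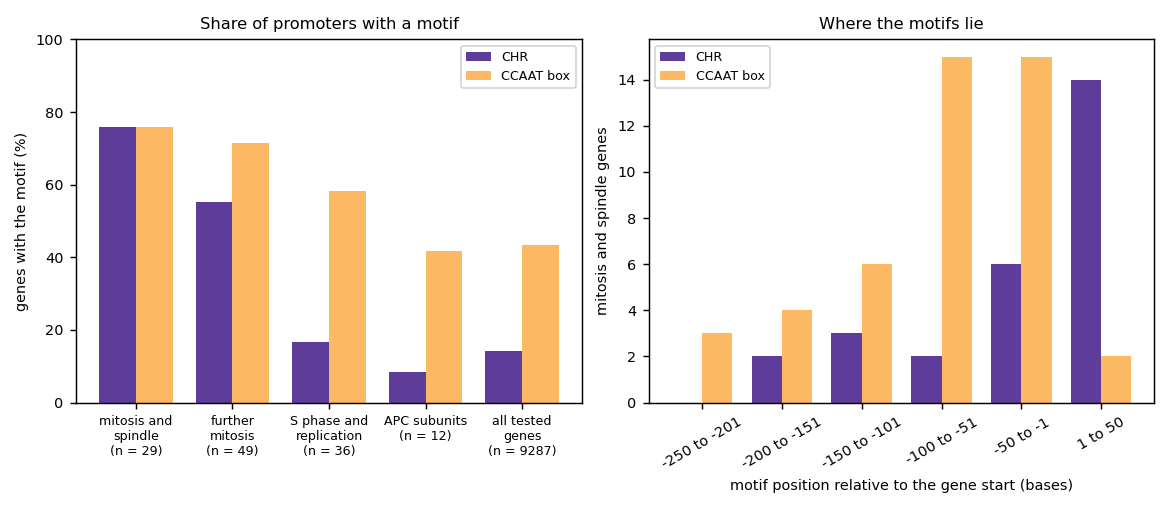
Left, the share of genes (%) with a CHR or a CCAAT box in the 300-base window for each list, with 75.9% of the mitosis and spindle genes and 14.2% of all tested genes holding a CHR. Right, the number of mitosis and spindle genes with a motif in each 50-base step from the gene start, where CHRs are most frequent just after the start (14 genes) and CCAAT boxes before it.

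The cyclins and their kinase came first in the order of mitotic events. Ccna2, cyclin A2 of S phase and mitotic entry, stood at 10.87, 11.15 and 10.99 in Dicer null arrays and at 10.74, 10.55 and 9.75 in Dicer heterozygous arrays (log2 values). The groups did not overlap, by a gap that was small between null replicate 1 and heterozygous replicate 1. Its log2 difference was 0.66 (SE 0.29, limma adjusted p = 0.237) and 0.36 without heterozygous replicate 3. Ccnb2, cyclin B2, had 10.99, 10.88 and 10.50 in null and 10.49, 10.25 and 9.04 in heterozygous arrays. The groups touched at 10.50 and 10.49, and the difference was 0.86 (SE 0.40, limma adjusted p = 0.261), or 0.42 without heterozygous replicate 3. Cdk1, the kinase itself, had 12.14, 12.36 and 11.72 in null arrays and 11.96, 11.80 and 10.28 in heterozygous arrays. Here the groups overlapped, with null replicate 3 below heterozygous replicates 1 and 2, and the difference of 0.73 (SE 0.47) became 0.19 without heterozygous replicate 3.

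Foxm1, the forkhead factor that switches on genes of mitotic entry, had log2 values of 8.25, 9.22 and 8.39 in Dicer null and 8.0, 7.91 and 6.77 in Dicer heterozygous arrays. Null replicate 2 stood above the rest of its group by 0.83 and heterozygous replicate 3 below its group by 1.14. The groups did not overlap, with a log2 difference of 1.06 (SE 0.42, limma adjusted p = 0.203) and 0.67 without heterozygous replicate 3. Its other 2 tested probe sets gave 1.10 and 1.12.

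Mki67, which coats mitotic chromosomes and is the usual marker of dividing cells, had 10.95, 11.46 and 10.93 in null and 10.89, 10.96 and 9.21 in heterozygous arrays. Apart from null replicate 2 and heterozygous replicate 3, its values lay between 10.89 and 10.96. The log2 difference of 0.76 (SE 0.50, limma adjusted p = 0.409) was 0.19 without heterozygous replicate 3. Top2a, the topoisomerase that untangles sister chromatids, had 12.18, 12.38 and 12.15 in null and 12.23, 11.78 and 11.56 in heterozygous arrays. The groups overlapped through heterozygous replicate 1, and the difference was 0.38 (SE 0.22), or 0.23 without heterozygous replicate 3.

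Cdc20 and Ube2c work with the anaphase-promoting complex, Cdc20 as its mitotic activator and Ube2c as its ubiquitin-conjugating enzyme. Cdc20 had log2 values of 10.81, 11.19 and 10.72 in null and 10.93, 10.69 and 9.30 in heterozygous arrays, with a difference of 0.60 (SE 0.44) that was 0.10 without heterozygous replicate 3. Ube2c had 10.99, 11.84 and 11.65 in null and 11.10, 10.96 and 9.85 in heterozygous arrays, and the difference was 0.86 (SE 0.40), or 0.46 without that array. In both genes a heterozygous array lay above a null array, so the groups overlapped.

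The spindle checkpoint genes had log2 differences of 0.77 to 1.06, and of 0.31 to 0.56 without heterozygous replicate 3. Ttk, the kinase at the head of the checkpoint, had 9.70, 10.25 and 9.22 in Dicer null and 9.38, 8.95 and 7.67 in Dicer heterozygous arrays, and the groups overlapped. Bub1, a kinase at the kinetochore, had 11.16, 11.50 and 11.09 in null and 10.92, 10.82 and 9.14 in heterozygous arrays. Bub1b, the inhibitor BubR1, had 10.40, 10.76 and 10.63 in null and 10.38, 10.19 and 8.53 in heterozygous arrays. For Bub1 and Bub1b the groups did not overlap, and for Bub1b they were 0.02 apart between null replicate 1 and heterozygous replicate 1. Mad2l1, which encodes the Mad2 protein that binds Cdc20, had 10.40, 11.13 and 11.03 in null and 10.46, 10.16 and 9.62 in heterozygous arrays. Its SD was 0.40 in null and 0.43 in heterozygous arrays, whereas that of Bub1 was 0.22 in null and 1.0 in heterozygous arrays. Mad2l1 was 1 of the 6 genes with an unadjusted p under 0.05, with a difference of 0.77 (SE 0.30, limma adjusted p = 0.196). Without heterozygous replicate 3 the differences were 0.56 for Ttk, 0.38 for Bub1, 0.31 for Bub1b and 0.54 for Mad2l1.

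In all 4 mitotic kinases and spindle assembly factors the Dicer null values lay above the Dicer heterozygous ones. They did so in 14 of the 34 genes and in 14.9% of all tested genes. The median log2 difference of the 4 was 1.06, or 0.56 without heterozygous replicate 3. Plk1, the polo-like kinase of mitotic entry and spindle formation, had log2 values of 7.32, 7.90 and 7.67 in Dicer null and 6.86, 6.89 and 5.39 in Dicer heterozygous arrays. All null values exceeded all heterozygous values by at least 0.43, and the difference was 1.25 (fold 2.38, SE 0.44, limma adjusted p = 0.165). Without heterozygous replicate 3 it was 0.76 (fold 1.69, adjusted p = 0.121). Aurka, the centrosomal Aurora kinase, had 9.92, 10.79 and 10.09 in null and 9.84, 9.51 and 7.64 in heterozygous arrays. Its difference of 1.27 (SE 0.60, limma adjusted p = 0.268) had the largest size among the 34 but also a heterozygous SD of 1.19, and it was 0.59 without heterozygous replicate 3.

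Tpx2, which activates Aurka on microtubules, had 10.85, 11.08 and 11.24 in null and 10.45, 10.62 and 9.91 in heterozygous arrays. Here null replicate 3 and not null replicate 2 was the highest. The difference of 0.73 (SE 0.24) had the smallest adjusted p of the 34 (limma, 0.143), and it was 0.52 without heterozygous replicate 3. Nusap1, a microtubule bundling protein, had 10.69, 10.77 and 10.99 in null and 10.41, 10.38 and 9.04 in heterozygous arrays. Its null values kept within 0.30 of each other, and the difference was 0.87 (SE 0.39), or 0.42 without heterozygous replicate 3.

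**Figure D3:**
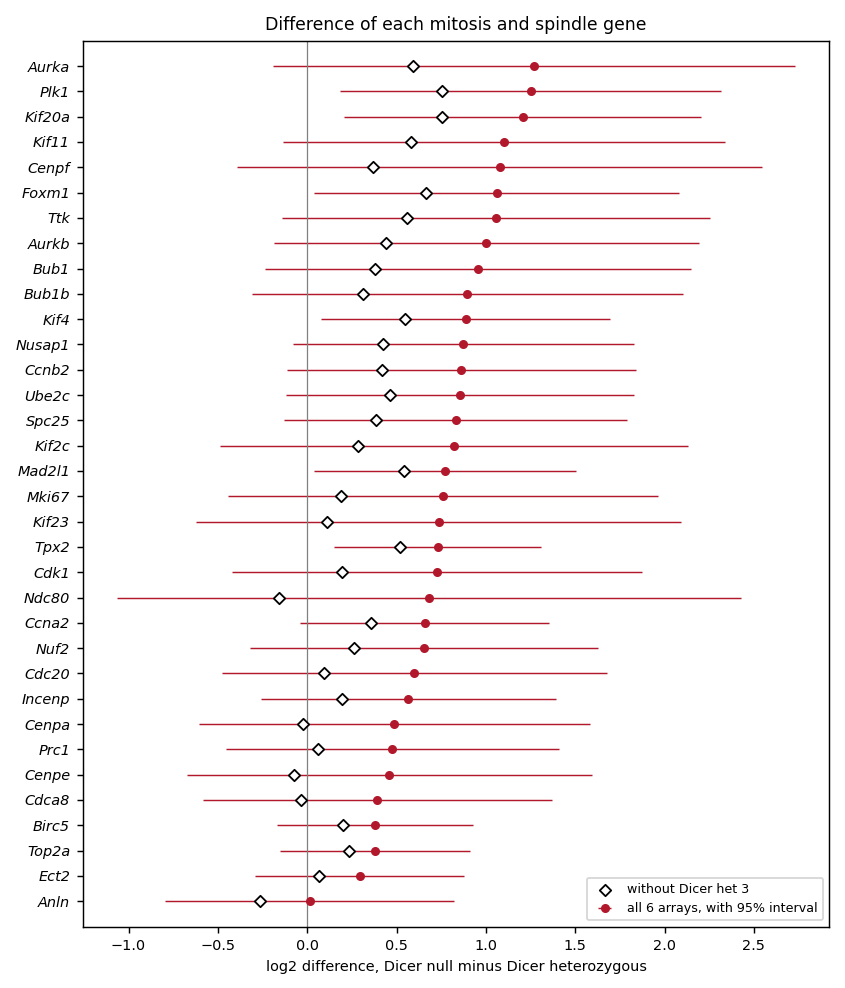
Log2 difference, Dicer null minus Dicer heterozygous, of each mitosis and spindle gene with its 95% interval from limma (red), and the same difference without heterozygous replicate 3 (open diamonds). All 34 red points lie above 0, 28 intervals cross 0, and 5 diamonds lie below 0.

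The chromosomal passenger complex, which corrects faulty attachments and later directs cytokinesis, had a median log2 difference of 0.48, or 0.20 without heterozygous replicate 3. Aurkb, its kinase, had 10.55, 11.13 and 10.61 in Dicer null and 10.34, 10.30 and 8.64 in Dicer heterozygous arrays, groups that did not overlap, with a difference of 1.0 (SE 0.49, limma adjusted p = 0.279). Its partners differed by less. Birc5 (survivin) had 11.97, 12.34 and 11.99 in null and 11.82, 11.98 and 11.36 in heterozygous arrays, a difference of 0.38. Cdca8 (borealin) had 12.36, 12.49 and 11.95 in null and 12.51, 12.09 and 11.02 in heterozygous arrays, where heterozygous replicate 1 was the highest of all 6. The scaffold Incenp had 12.21, 12.47 and 12.10 in null and 12.13, 12.00 and 10.95 in heterozygous arrays, a difference of 0.57. Without heterozygous replicate 3 the differences were 0.44 for Aurkb, 0.20 for Birc5 and 0.195 for Incenp, and that of Cdca8 turned to -0.03. The differences between these partners were not tested, and the brightest probe sets of Cdca8 and Incenp gave smaller differences than their other tested ones.

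The centromere and kinetochore genes had a median log2 difference of 0.67, and 0.12 without heterozygous replicate 3. Ndc80, which grips the microtubule, had log2 values of 7.85, 8.23 and 7.45 in null and 8.31, 7.69 and 5.49 in heterozygous arrays. Heterozygous replicate 1 was the highest of the 6 arrays and heterozygous replicate 3 lay 2.20 below the next heterozygous value, the widest such gap of the 34. The difference was 0.68 (SE 0.72, limma adjusted p = 0.615), and -0.16 without heterozygous replicate 3. Its partner Nuf2 had 9.25, 9.79 and 8.92 in null and 9.14, 8.98 and 7.88 in heterozygous arrays. Spc25, of the same complex, had 9.29, 9.60 and 9.24 in null and 9.12, 8.86 and 7.66 in heterozygous arrays. Of these 3 subunits only Spc25 had groups that did not overlap, with a difference of 0.83 (SE 0.40). Without heterozygous replicate 3 the difference was 0.39 for Spc25 and 0.26 for Nuf2.

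Cenpa, the histone variant that marks the centromere, had 9.48, 9.93 and 9.49 in null and 9.81, 9.50 and 8.13 in heterozygous arrays. Cenpe, a kinetochore motor, had 9.18, 9.26 and 8.96 in null and 9.46, 8.95 and 7.61 in heterozygous arrays. For both the groups overlapped, and the differences of 0.49 and 0.46 became -0.02 and -0.07 without heterozygous replicate 3. Cenpf, a large protein of the outer kinetochore, had 9.38, 9.95 and 9.48 in null and 9.42, 9.05 and 7.11 in heterozygous arrays. Its difference of 1.08 (SE 0.61) became 0.37 without that array.

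The kinesin motors had a median log2 difference of 0.89 (0.55 without heterozygous replicate 3), and 3 of 5 had groups that did not overlap. All null values lay above all heterozygous values in 14 of the 34 genes and in 14.9% of all tested genes. Kif20a, which carries the passenger complex to the spindle midzone, had 10.95, 11.33 and 10.89 in Dicer null and 10.47, 10.14 and 8.94 in Dicer heterozygous arrays. The nearest values of the groups were 0.42 apart, and the difference was 1.21 (fold 2.31, SE 0.41, limma adjusted p = 0.156). Without heterozygous replicate 3 it was 0.75 (fold 1.68, adjusted p = 0.122). Kif11, which pushes the spindle poles apart, had 9.80, 10.66 and 9.65 in null and 9.32, 9.59 and 7.89 in heterozygous arrays. Its groups were 0.06 apart at their nearest, and the difference was 1.10 (SE 0.51), or 0.58 without that array. Kif4, a motor on chromosome arms, had 8.56, 9.12 and 8.70 in null and 8.28, 8.21 and 7.23 in heterozygous arrays, with a difference of 0.89 (SE 0.33, limma adjusted p = 0.184) that was 0.55 without heterozygous replicate 3.

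The other 2 motors overlapped between the groups. Kif2c, which takes microtubule ends apart, had log2 values of 9.77, 10.21 and 9.23 in null and 9.88, 9.02 and 7.85 in heterozygous arrays. Kif23, of the centralspindlin complex, had 9.74, 10.31 and 9.46 in null and 9.88, 9.57 and 7.85 in heterozygous arrays. In both, heterozygous replicate 1 lay above null replicates 1 and 3, and the differences of 0.82 and 0.74 became 0.29 and 0.11 without heterozygous replicate 3.

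The 3 genes of the midzone and of cytokinesis had a median log2 difference of 0.29 (0.01 to 0.48), and of 0.06 (-0.27 to 0.07) without heterozygous replicate 3. Anln (anillin), which organises the contractile ring, had 10.95, 11.32 and 10.43 in null and 11.19, 11.14 and 10.33 in heterozygous arrays. Null replicate 3 lay as low as heterozygous replicate 3, within 0.10, and the difference was 0.01 (95% interval -0.80 to 0.82), with -0.27 as the value without heterozygous replicate 3. Ect2, which activates RhoA at the division plane, had 11.06, 11.37 and 11.17 in null and 11.16, 11.11 and 10.45 in heterozygous arrays, a difference of 0.29 (95% interval -0.29 to 0.88) that was 0.07 without that array. Prc1, which crosslinks midzone microtubules, had 10.69, 11.04 and 10.71 in null and 10.95, 10.56 and 9.50 in heterozygous arrays, a difference of 0.48 that was 0.06 without that array. Whether the roles differ from each other was not tested.

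Several genes had further probe sets, and the tested ones had differences of the same sign. The 34 genes had 73 probe sets of their own, and 29 further ones, of 20 genes, had a mean of at least 3. All 29 had a higher mean in Dicer null arrays (log2 differences 0.13 to 1.74), as 48.9% of all tested genes did. By limma 0 were called, where 756 of 24385 tested probe sets were called. In 27 the lowest value was in heterozygous replicate 3, against 29.8% of all tested genes. They read the same genes in the same arrays, so they are not independent of the brightest ones. The 10 below the minimum were not tested and differed by -0.03 to 0.44. Without heterozygous replicate 3, 28 of the 29 were positive, against 45.5% of all tested genes. They ran from -0.058 in a probe set of Nusap1 to 1.24, and their median was 0.38, against 0.89 with all arrays. In 19 of the 29 the difference was larger than that of the gene's brightest probe set. Cenpf gave 1.74 and 1.0 beside 1.08, Kif11 gave 1.62 and 0.68 beside 1.10, and Incenp gave 1.24, 1.10 and 0.70 beside 0.57. Anln gave 0.41 beside 0.01. Of the brightest probe sets 7 carry the suffix s or x, which marks probes shared with other transcripts.

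**Figure D4:**
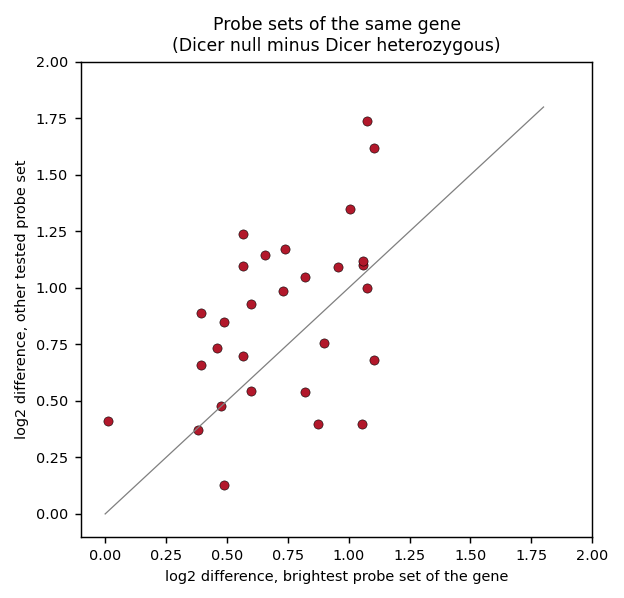
Each point is a further tested probe set of a mitosis or spindle gene, with its log2 difference (Dicer null minus Dicer heterozygous) on the vertical axis and that of the gene's brightest probe set on the horizontal axis. All 29 points lie above 0, and 19 lie above the line of equal difference.

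Other cell cycle genes were set beside these from lists written from general knowledge, with earlier results of these data known. Among 58 tested further mitosis genes, 57 had a positive difference, against 48.9% of all tested genes. The median of the 58 was 0.72 (0.25 without heterozygous replicate 3). In 53 the lowest value was in heterozygous replicate 3, against 29.8% of all tested genes. By limma 0 were called higher or lower, where 3.46% of all tested genes were called. At an unadjusted p under 0.05, 22 were higher, against 10.5% of all tested genes, and 1 was lower. Cenph, a subunit of the inner kinetochore, came nearest. It had log2 values of 8.80, 9.26 and 9.02 in Dicer null and 6.79, 7.47 and 7.89 in Dicer heterozygous arrays, a difference of 1.64 (SE 0.31, limma adjusted p = 0.0512). Here heterozygous replicate 3 was the highest and not the lowest of its group, and without it the difference was 1.90 (limma adjusted p = 0.0354).

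Among 43 tested genes of S phase and replication, 42 had a positive difference, against 48.9% of all tested genes. The median of the 43 was 0.56 (0.32 without heterozygous replicate 3). In 39 the lowest value was in heterozygous replicate 3, against 29.8% of all tested genes. By limma 0 were called, where 3.46% of all tested genes were called. At an unadjusted p under 0.05, 17 were higher, against 10.5% of all tested genes, and 0 were lower. Mcm10, a replication initiation factor, came nearest with a difference of 1.36 (SE 0.27, limma adjusted p = 0.0555). The listed subunits of the anaphase-promoting complex, with which Cdc20 and Ube2c act, had smaller differences of mixed sign. That list also counts an activator of the complex related to Cdc20. Of 13 tested, 4 had a positive difference (48.9% of all tested genes), and the median was -0.11. In 3 the lowest value was in heterozygous replicate 3 (29.8% of all tested genes). By limma 0 were called (3.46% of all tested genes) and 0 had an unadjusted p under 0.05. Cdc23 came nearest (0.36, SE 0.15, limma adjusted p = 0.221). The differences between the lists were not tested. In the promoter windows a CHR was present in 27 of 49 further mitosis genes (55.1%), 6 of 36 S phase genes (16.7%) and 1 of 12 genes of the subunit list (8.33%). An E2F motif was present in 6, 10 and 0 of these genes (12.2%, 27.8% and 0%).

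**Figure D5:**
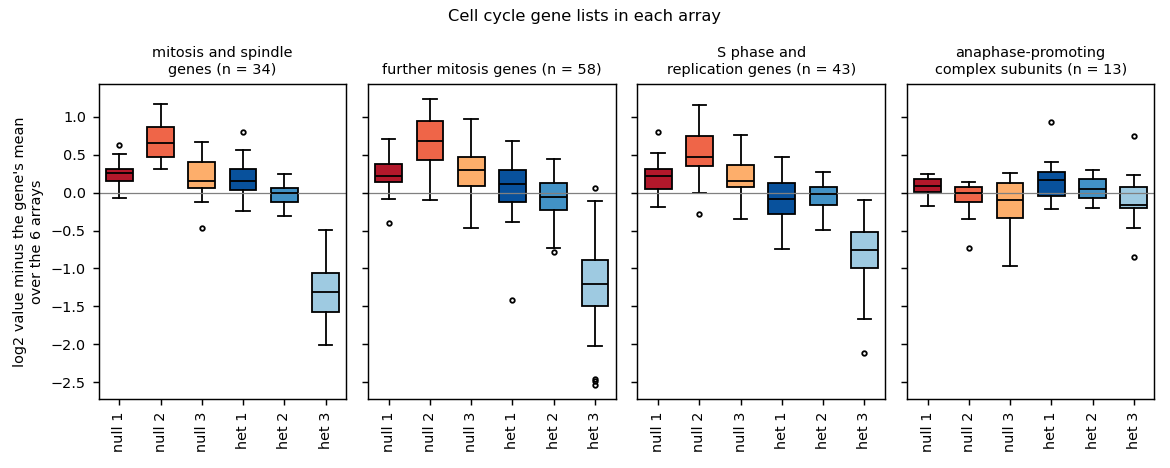
Boxes show, for each array, the log2 value minus the gene's mean over the 6 arrays, with the median as a line, the quartiles as the box, whiskers to 1.5 times the box and single genes beyond. The median of heterozygous replicate 3 is -1.31 for mitosis and spindle genes, -1.21 for further mitosis genes, -0.76 for S phase genes and -0.16 for the anaphase-promoting complex list.

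Markers of other cell types and of the mesenchyme were read in the same arrays. The median of the 9 mesenchymal markers, relative to each gene's mean, was 0.12, -0.34 and 0.03 in Dicer null replicates 1, 2 and 3 and -0.05, 0.10 and 0.14 in Dicer heterozygous replicates 1, 2 and 3. Thus null replicate 2, highest in mitosis genes, was lowest in these. Of the 9, 4 had a positive and 5 a negative log2 difference, with a median of -0.07. By limma 0 were called, where 3.46% of all tested genes were called. At an unadjusted p under 0.05, 0 were higher, against 10.5% of all tested genes, and 2 were lower. Those 2 were S100a4 and Pdgfrb, with differences of -1.37 and -1.03 (limma adjusted p = 0.0570 and 0.186). All 4 skeletal muscle markers with a mean of at least 3 had their lowest value in heterozygous replicate 3, as did 2 of 3 epithelial ones. The share over all tested genes was 29.8%. The muscle markers were weak, with means of at most 4.85 where the array medians were 3.32 to 3.43. Myh3 had 4.27 in heterozygous replicate 1 and 2.41 to 3.13 elsewhere, so its mean, like that of Krt18, owed much to that array. The part of these markers in the mitosis and spindle values was not tested.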

How the data were processed

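Sarcoma cell RNA was measured on Affymetrix 3′ arrays. The authors deposited log2 values per probe set, made with R 2.11.1 and GCRMA 2.20.0 per the submitters' processing notes. That method corrects background by probe sequence and normalizes quantiles between arrays, which removes any overall shift in RNA amount. Not given in the sources used here are its settings, and the log2 scale was read from the range of 0.40 to 14.18. Precision is limited by the 3 arrays in each group.

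Of 45037 probe sets, 34945 are tied to 1 symbol by the platform annotation, 932 to several and 9160 to none. The 24385 with a mean of at least 3 were tested in limma 3.58.1 (R 4.3.3; lmFit and eBayes, two-sided, no block), with Benjamini-Hochberg adjustment over all of them and calls at 0.05. A gene's probe set was that with the highest mean. Genes and lists were chosen with earlier results of these data known. Every mitosis and spindle gene may be named, of each cell cycle list without a call the gene with the smallest p, and any marker with a mean of at least 3. The fit was tested on simulated data. Alternatives changed the minimum, moderation, normalization, weights, block, probe set and arrays. Figures used matplotlib 3.10.9.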

Additional observations from a re-analysis of the deposited data

How the results depend on the processing

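No mitosis or spindle gene was called by limma in the alternatives for minimum, moderation, normalization, block, probe set and left-out arrays, and their median log2 difference was 0.34 to 1.08 without 1 array. It was 0.21 without null replicate 2 and heterozygous replicate 3 together, a setting added after seeing the data, as was that without s or x probe sets. The exception was array weights by limma's default method, which called 2 genes, Top2a and Kif20a (adjusted p = 0.0463 and 0.0208), where 29.2% of all genes were called. In that setting 15 further mitosis genes, 11 S phase genes and 2 subunits of the anaphase-promoting complex were called, and 7, 5 and 0 with gene-by-gene weights, where 13.1% of all genes were called. Of the further mitosis genes 1 was called with a minimum of 4, with trend moderation, with centred arrays or with the mean of all probe sets, where 3.7%, 4.77%, 3.65% and 4.15% of all genes were called, and 0 to 2 without 1 array, the 2 (Cenph and Stil, the second named after its values were seen) being without heterozygous replicate 3 (4.07% of all genes). Their median was 0.18 without null replicate 2 and heterozygous replicate 3. Of the S phase genes 1 was called with trend moderation, with the most variable probe set or without s and x probe sets (4.77%, 4.1% and 3.51% of all genes), and 2 with the mean of all probe sets. Calling is at a fixed threshold, and the cause of these changes was not tested.

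Some directions turned. Without 1 array the log2 difference ranged from -0.27 to 0.25 for Anln, -0.033 to 0.71 for Cdca8, -0.022 to 0.82 for Cenpa, -0.072 to 0.85 for Cenpe and -0.16 to 1.25 for Ndc80, the negative end being without heterozygous replicate 3. Anln was also negative without null replicate 1 or null replicate 2, at -0.005 after quantile normalization, and at -0.27 and -0.24 with default and gene-by-gene array weights. Without null replicate 2 and heterozygous replicate 3 together the differences were -0.045 for Cdc20, -0.15 for Cdca8, -0.17 for Cenpa, -0.14 for Cenpe, -0.35 for Ndc80, -0.13 for Kif23, -0.055 for Prc1, -0.48 for Anln and -0.02 for Ect2. All of these are values of the brightest probe sets. Without heterozygous replicate 3, further tested probe sets had 0.093 for Anln, 0.05 and 0.0083 for Cdca8, 0.12 and 0.073 for Cenpa and 0.24 for Cenpe. A further probe set of Nusap1 went the other way, at -0.058. The cause of the changes in sign was not tested.

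The groups share replicate numbers. The correlation between deviations from the group means was -0.06, 0.11 and 0.24 for numbers 1, 2 and 3, and for 3 of the 6 arrays it was highest with the array of the same number, so the numbers were not taken as pairs. With the replicate block 0 of 34 genes were called, the smallest limma adjusted p was 0.137, and 73 of all tested genes were called in place of 395.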
